A study of Homo sapiens with 12 samples.

Results

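The mRNAs of 30 enzymes of purine and pyrimidine nucleotide synthesis and salvage were followed in A375 cells, a human melanoma line with an activating BRAF mutation. Their genes were the rows of the deposited count table whose gene name was one of 30 fixed symbols, out of 44659 genes listed, and all 30 were found and passed the filter on low counts. The genes cover the supply of phosphoribosyl pyrophosphate (PRPS1, PRPS2), the de novo purine steps to IMP (PPAT, GART, PFAS, PAICS, ADSL, ATIC), the branch to GMP (IMPDH1, IMPDH2, GMPS), the de novo pyrimidine steps to UMP (CAD, DHODH, UMPS), CTP synthesis (CTPS1, CTPS2), ribonucleotide reductase (RRM1, RRM2), thymidylate and deoxynucleotide supply (TYMS, DUT, TK1, DCK, DTYMK), nucleotide kinases (CMPK1, NME1, NME2, GUK1), base salvage (HPRT1, APRT) and deoxynucleotide hydrolysis (SAMHD1). The products of 6 of them, PPAT, PFAS, GMPS, CAD, CTPS1 and CTPS2, take an amide nitrogen from glutamine.

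Cells build purine rings stepwise on a ribose phosphate and pyrimidine rings before the ribose is attached, and both routes draw nitrogen from glutamine and aspartate. Ribonucleotide reductase then turns ribonucleotides into deoxynucleotides, thymidylate is made separately from dUMP, and salvage enzymes recover free bases and nucleosides. Proliferating cells, tumour cells among them, run these routes at a high rate, and several of the genes are known to be transcribed mainly around S phase.

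RNA sequencing was performed in 2 separate experiments of 6 libraries each, with every library from A375 cells. In the first, 3 libraries labelled MAPKi came from cells that received 500 nM vemurafenib, a BRAF inhibitor, together with 500 nM cobimetinib, a MEK inhibitor, for 24 h, and 3 from cells labelled DMSO served as their reference. In the second, 3 libraries came from cells kept for 24 h in glutamine-free medium (Gln-depleted) and 3 from cells in CTRL medium, which contains glutamine, at 2 mM in the stated growth medium. The sequencing batch differed between the experiments, so levels were compared only within an experiment. In the glutamine experiment, replicate 1 of each group belonged to experimental batch 1, and replicates 2 and 3 belonged to experimental batch 2. The labels do not say whether replicates were independent cultures, and the p-values measure only the spread between these libraries, which may be technical. The extraction protocol in the labels describes RNA from cytoplasmic fractions, whereas the labels' molecule field and the study's methods give total RNA, so whether nuclear RNA is part of the levels is not known. All cells are of 1 line, which limits the groups as a model of melanoma.

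Libraries held 31056296 to 40071368 counted reads (median 35748567). Levels are given below as CPM, TMM-scaled counts per 1000000 counted reads, and fold changes are log2 values from edgeR (n = 3 per group). After their ± sign stands a standard error, computed as the absolute log2 value divided by the square root of edgeR's quasi-likelihood F statistic. Member counts ranged from 48 to 25679 per library, and without NME2 the lowest was 369. The 10 melanoma cell markers summed to 5470 to 13600 CPM. The 14 markers of leukocytes, epithelium, endothelium and fibroblasts summed to 17.3 to 32.6 CPM, with CD3E and KRT5 at 0 in all libraries. Single genes made up much of the melanoma sums, VIM at 5120 ± 195 CPM in DMSO and DCT at 7830 ± 1250 CPM in MAPKi (SD). MLANA and TYR stood at only 0.791 and 0.919 CPM in DMSO, below the fibroblast marker LUM at 18.9 CPM. In MAPKi 5 of the 10 were upregulated and 3 downregulated, beside 17.2% and 18.4% of all tested genes. The sums alone therefore do not establish the cell type. In the MAPKi libraries all 12 listed MAPK pathway targets were downregulated, DUSP6 from 129 ± 4.66 to 0.172 ± 0.102 CPM (SD; adjusted p = 3.2e-10 against 1.5-fold, edgeR). In the Gln-depleted libraries 7 of the 9 tested amino acid response genes were upregulated, TRIB3 by 3.14 ± 0.20 (adjusted p = 0.00143 against 1.5-fold, edgeR).

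MAPK inhibition was accompanied by lower mRNA levels of most of the 30 genes. A gene was counted as downregulated or upregulated when its fold change exceeded 1.5-fold at an adjusted p of at most 0.05 (edgeR's quasi-likelihood fit, glmTreat, Benjamini-Hochberg adjustment over 12593 tested protein-coding genes). By this rule 25 of the 30 genes were downregulated and 0 upregulated, where 18.4% of all tested genes were downregulated and 17.2% upregulated. Against no change, 26 were lower and 1 was higher, beside 38.8% and 39.3% of all tested genes. The DMSO and MAPKi libraries did not overlap for 27 genes that were lower and 1 that was higher, beside 40.2% and 40.8%. The median log2 fold change of the 30 was -1.31, and that of all tested genes was 0.01.

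**Figure D1:**
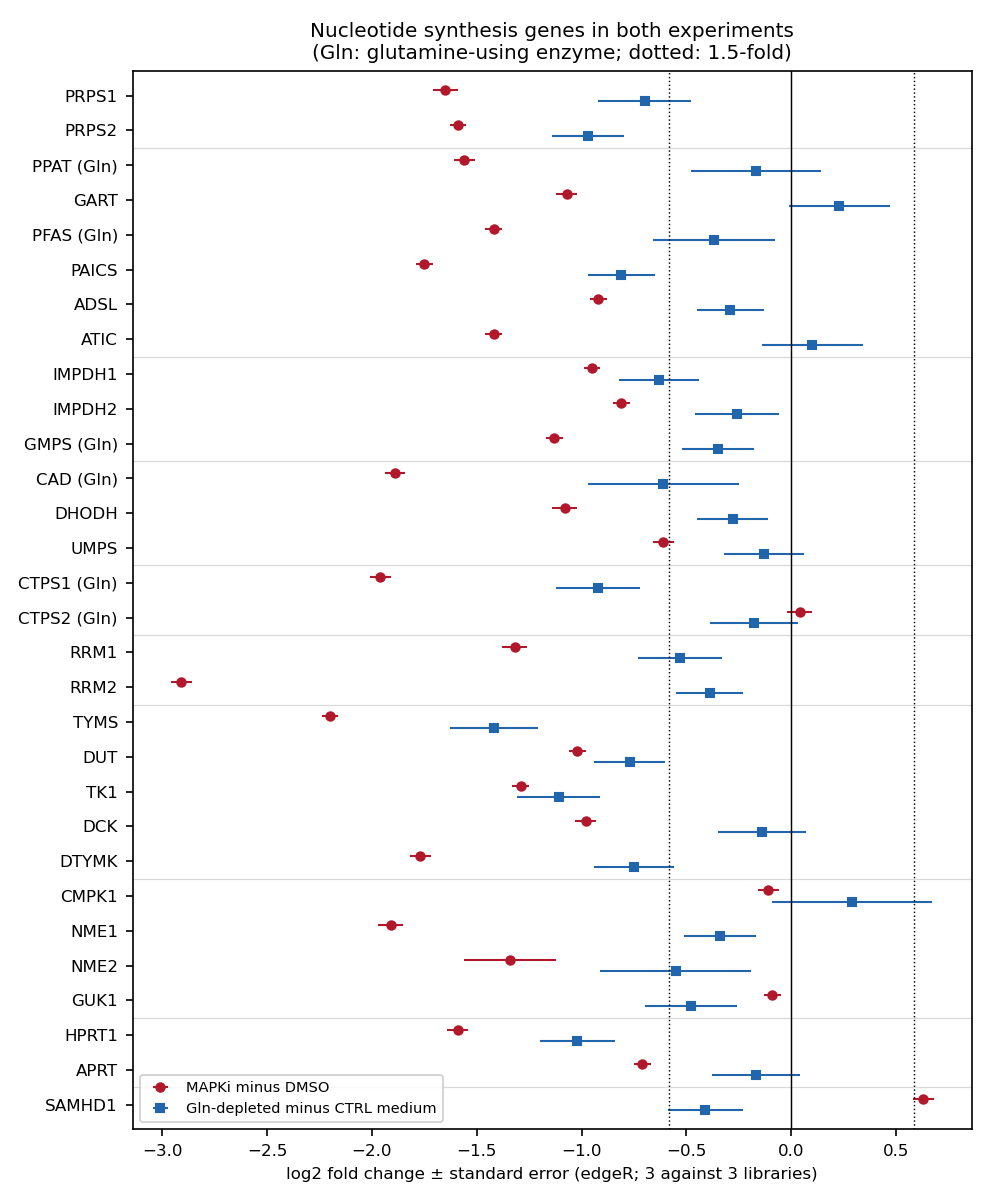
Log2 fold change (x axis) of each of the 30 genes, in rows grouped by role, with bars of 1 standard error; circles are MAPKi minus DMSO and squares Gln-depleted minus CTRL medium, 3 against 3 libraries each. The MAPKi values run from -2.91 (RRM2) to 0.63 (SAMHD1) and the Gln-depleted values from -1.42 (TYMS) to 0.29 (CMPK1), with wider error bars.

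The largest fall was that of RRM2, the small subunit of ribonucleotide reductase that carries the radical and accumulates in S phase. The gene lies on the plus strand at chr2:10120698-10211725 (GRCh38, GENCODE v44). Its level was 284, 306 and 279.6 CPM in the DMSO libraries and 39.6, 39.0 and 37.1 CPM in the MAPKi libraries. The MAPKi libraries lay far below every DMSO library, a log2 fold change of -2.91 ± 0.05 (adjusted p = 1.7e-09 against 1.5-fold, edgeR), or 7.52-fold. RRM1, the large subunit that binds the substrates, fell by less: 115, 122 and 129.9 CPM in DMSO and 45.6, 49.9 and 51.4 CPM in MAPKi, a log2 change of -1.32 ± 0.06. RRM2B, the alternative small subunit and no member of the 30, moved the other way, from 54.4 ± 1.31 to 81.7 ± 0.794 CPM (SD, n = 3), a log2 change of 0.59 ± 0.04 that passed the test against no change (adjusted p = 5.8e-07, edgeR) but not that against 1.5-fold (adjusted p = 0.503). The count ratio of RRM2 to RRM2B within a library was 5.25, 5.75 and 5.01 in DMSO and 0.485, 0.472 and 0.459 in MAPKi. Per kilobase of canonical transcript the levels of RRM2 and RRM2B were 87.8 and 11.2 CPM in DMSO and 11.7 and 17.0 CPM in MAPKi, so their order was inverted.

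All 5 genes of thymidylate and deoxynucleotide supply were downregulated, with a median log2 fold change of -1.29. TYMS, which methylates dUMP to dTMP and lies at chr18:657653-673578, stood at 321, 330.2 and 318 CPM in DMSO and at 70.3, 70.3 and 69.9 CPM in MAPKi. The log2 change was -2.20 ± 0.04 (adjusted p = 2.2e-09 against 1.5-fold, edgeR), or 4.60-fold, and the groups were far apart. DTYMK, the kinase that takes dTMP to dTDP, fell by 1.77 ± 0.05 on the log2 scale, and TK1, the cytosolic thymidine kinase, by 1.29 ± 0.04. DUT, which removes dUTP and yields dUMP, fell by 1.02 ± 0.04, and DCK, the deoxycytidine kinase, by 0.98 ± 0.05. TYMS shares 47.9% of its annotated exon bases with ENOSF1 and TYMSOS on the opposite strand, and DUT 14.5% with DUT-AS1; the strand setting of the counting is not given in the sources used here, so reads from these partners cannot be told apart there. TYMS held 10457 to 11675 reads in the DMSO libraries, ENOSF1 1223 to 1467 and TYMSOS 820 to 922. In the MAPKi libraries TYMS held 2203 to 2765 reads, ENOSF1 832 to 1039 and TYMSOS 228 to 300, so the counts of both partners were lower too.

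The 6 genes of the de novo purine route to IMP were all downregulated, with a median log2 fold change of -1.42 and a range of -1.75 to -0.92. PAICS, which carries out the carboxylation step and the aspartate addition after it, stood at 586, 598 and 594 CPM in DMSO. It stood at 170.5, 174 and 183 CPM in MAPKi, a log2 change of -1.75 ± 0.04 (adjusted p = 1.2e-08 against 1.5-fold, edgeR). PPAT, which catalyses the committed step and uses glutamine, stood at 76.2, 72.3 and 70.0 CPM in DMSO and 25.7, 23.4 and 24.9 CPM in MAPKi, a log2 change of -1.56 ± 0.05. PFAS, the other glutamine-using enzyme of the route, and ATIC, which completes the ring to IMP, both changed by -1.42 ± 0.04. GART, which carries 3 activities of the route on 1 polypeptide, changed by -1.07 ± 0.05, and ADSL, the lyase that acts both here and in the AMP branch, by -0.92 ± 0.04. For each of the 6 the highest MAPKi library lay below the lowest DMSO library.

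PPAT and PAICS lie head to head on chromosome 4, and the sequence between their RefSeq start sites is shown because the pair shares it. It spans chr4:56435616-56435751 (GRCh38.p14), 136 bases, printed on the strand of PAICS.
PPAT-PAICS: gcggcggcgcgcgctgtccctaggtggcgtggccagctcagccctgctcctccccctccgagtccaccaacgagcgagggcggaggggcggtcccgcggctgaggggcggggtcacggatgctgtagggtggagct
Within it none of the motifs searched was found, namely the E-box CACGTG, the E2F motifs TTTCCCGC, TTTCGCGC, TTTGCCGC and TTTGGCGC, and the CCAAT box CCAAT, each on both strands. The pair did not change in equal measure, since the count ratio of PPAT to PAICS was 0.13, 0.121 and 0.118 in DMSO and 0.151, 0.134 and 0.136 in MAPKi, a mean log2 difference of 0.19. The ratio was chosen after its values were seen and was not tested.

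RefSeq promoter windows, 250 bases before to 50 after a start, were given for 28 of the 30 genes (43 windows), all but ADSL and IMPDH2. The E-box CACGTG, the core recognised by MYC with MAX, occurred in 14.0% of these 43 windows, in 9.4% of the 15225 windows of tested genes and in 7.3% of all 35116 windows. The E2F motifs occurred in 11.6%, 4.7% and 3.3%, and the CCAAT box in 30.2%, 34.6% and 34.6%. Counted by gene, with a match in any window, an E-box was found in 21.4% of the 28 members and 12.9% of 10240 tested genes. An E2F motif was found in 17.9% and 6.6%, and a CCAAT box in 35.7% and 43.7%. The genes with an E-box were PPAT, PAICS, ATIC, DHODH, DCK and NME1, and those with an E2F motif were PRPS2, GART, TYMS, DUT and DCK. The E-box of PPAT and PAICS is a single site at chr4:56435792-56435797, upstream of PPAT and at base 41 of PAICS, and was counted for both genes. Matches of different motifs could overlap and were counted for each, and a match describes letters in the window and no bound factor. The sites are shown in 30-base stretches with the motif in capitals so that the flanks can be compared.
PAICS (chr4:56435772-56435801, plus strand): ctggaaagctgtatttgctgCACGTGgaaa
ATIC (chr2:215312001-215312030, plus strand): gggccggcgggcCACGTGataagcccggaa
ATIC (chr2:215312076-215312105, plus strand): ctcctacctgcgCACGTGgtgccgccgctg
DHODH (chr16:72008573-72008602, plus strand): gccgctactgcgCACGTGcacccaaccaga
DCK (chr4:70993521-70993550, plus strand): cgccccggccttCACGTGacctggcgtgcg
NME1 (chr17:51153579-51153608, plus strand): caagtgctgcgaacCACGTGggtcccgggc
PRPS2 (chrX:12791389-12791418, plus strand): agccgccgcgcTTTCCCGCtcccgcagcag
GART (chr21:33542338-33542367, minus strand): agcatTTTGGCGCtcccccccggcgctcct
TYMS (chr18:657603-657632, plus strand): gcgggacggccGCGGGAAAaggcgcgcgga
DUT (chr15:48332144-48332173, plus strand): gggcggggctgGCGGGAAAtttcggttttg
DUT (chr15:48332159-48332188, plus strand): gaaatttcggtTTTGGCGCgctccctgcgg
DCK (chr4:70993659-70993688, plus strand): gctgcctccgcGCGCCAAAgtcaaaccccg
ATIC holds a pair of E-boxes on either side of its start, and DUT a pair of E2F motifs upstream of 1 of its starts. The GART motif lies before a start inside the gene, downstream of the outermost one. Beside these windows, MYC itself changed by -4.06 ± 0.10 on the log2 scale and E2F1 by -2.86 ± 0.08 in MAPKi (adjusted p = 5.9e-09 and 1.4e-08 against 1.5-fold, edgeR). Of the 4 tested genes of the listed regulators 3 were downregulated. Whether any of them had a part in the members' change was not tested.

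The enzymes that supply the ribose donor and those of the GMP branch were downregulated too. PRPS1 and PRPS2, which make phosphoribosyl pyrophosphate, changed by -1.65 ± 0.06 and -1.59 ± 0.04. Their count ratio overlapped between DMSO (0.447 to 0.463) and MAPKi (0.411 to 0.468). IMPDH2 and IMPDH1, the rate-limiting enzymes toward guanine nucleotides, changed by -0.81 ± 0.04 and -0.95 ± 0.04, and GMPS, which uses glutamine to form GMP, by -1.13 ± 0.04. IMPDH2 had the highest level per kilobase of the 30 genes in DMSO, 232 CPM per kilobase of its canonical transcript, and 133 in MAPKi, where it stayed at rank 1. Its exons share 32.8% of their bases with other annotated genes.

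In the pyrimidine route the fall was steepest at the first enzyme. CAD (chr2:27217369-27243943), the polypeptide that joins the glutamine-dependent carbamoyl phosphate step to the next steps of the route, stood at 238, 245 and 261 CPM in DMSO and 70.2, 64.6 and 65.9 CPM in MAPKi. The log2 change was -1.89 ± 0.05 (adjusted p = 2.0e-08 against 1.5-fold, edgeR), with the groups well apart. DHODH, the mitochondrial dehydrogenase of the route, changed by -1.08 ± 0.06. UMPS, which forms UMP, stood at 61.9, 69.3 and 61.6 CPM in DMSO and 40.9, 42.3 and 43.4 CPM in MAPKi. Its log2 change of -0.61 ± 0.05 passed the test against no change (adjusted p = 6.9e-06) and not that against 1.5-fold (adjusted p = 0.354, edgeR).

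The CTP synthases differed from each other although they catalyse the same glutamine-dependent step from UTP to CTP. CTPS1 (chr1:40979300-41012565) stood at 87.1, 95.0 and 90.0 CPM in DMSO and 23.6, 23.2 and 23.2 CPM in MAPKi, a log2 change of -1.96 ± 0.05 (adjusted p = 7.7e-09 against 1.5-fold, edgeR). CTPS2 stood at 29.7, 30.6 and 31.4 CPM in DMSO and 30.3, 30.2 and 33.7 CPM in MAPKi, a log2 fold change of 0.04 ± 0.06 (adjusted p = 0.537 against no change, edgeR) with overlapping groups. The CTPS1 to CTPS2 count ratio was 2.94, 3.11 and 2.86 in DMSO and 0.78, 0.768 and 0.69 in MAPKi. The mean log2 ratio thus differed by -1.99 (two-sided exact permutation p = 0.1, the smallest that 3 against 3 libraries allow; 0.12 adjusted over 5 ratios). The other ratios with separate groups were RRM2 to RRM2B (log2 difference -3.50), NME1 to NME2 (-0.60) and IMPDH1 to IMPDH2 (-0.14), each with the same exact permutation p. PRPS1 to PRPS2 differed by -0.06 (exact permutation p = 0.4).

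**Figure D2:**
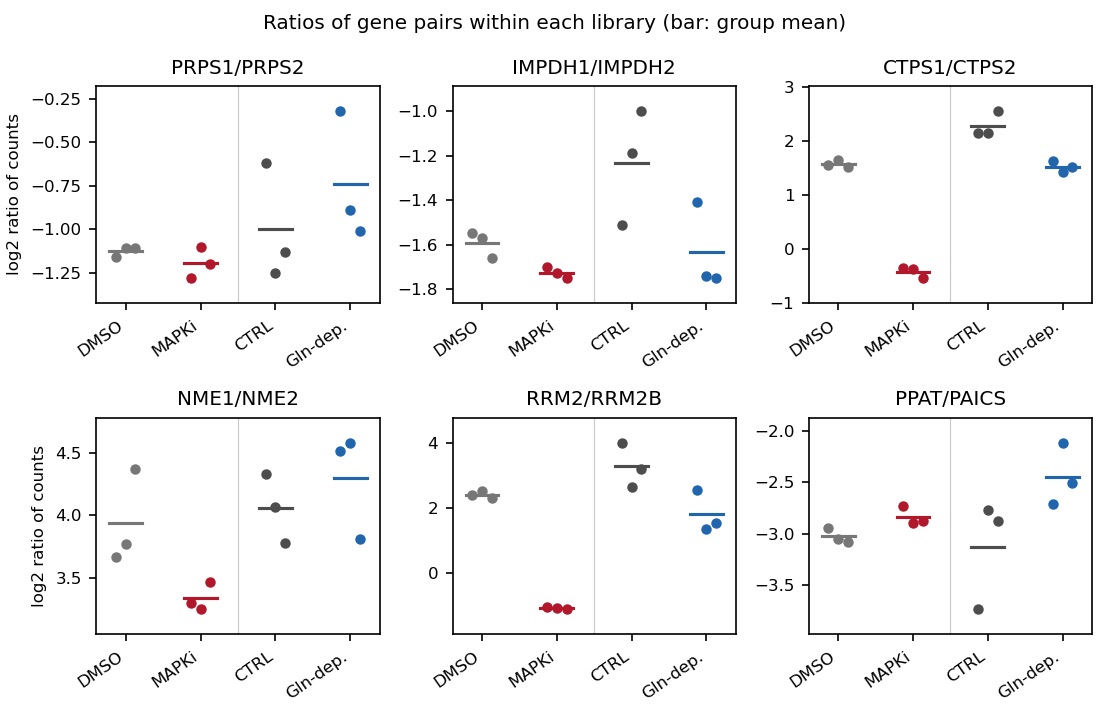
Log2 ratio of the counts of each named pair of genes (y axis, a separate scale in each panel) in the 12 libraries, by group; points are libraries and bars group means. The CTPS1 to CTPS2 and RRM2 to RRM2B ratios lie below 0 in the 3 MAPKi libraries and above 0 in the 9 others.

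The nucleotide kinases were divided. NME1, a nucleoside diphosphate kinase, stood at 54.1, 59.4 and 55.3 CPM in DMSO and 15.9, 14.6 and 14.6 CPM in MAPKi, a log2 change of -1.91 ± 0.06. Its neighbour NME2 changed by -1.34 ± 0.22 on only 48 to 154 reads a library. Both genes share exon bases with an annotated NME1-NME2 read-through (18.7% and 24.2%), whose own row was 0 in all 12 libraries, so the levels of NME1 and NME2 are uncertain. CMPK1, the UMP and CMP kinase, had overlapping groups, 183 to 199 CPM in DMSO and 171 to 184 CPM in MAPKi (log2 fold change -0.11 ± 0.05, adjusted p = 0.058 against no change, edgeR). GUK1, the guanylate kinase, had a log2 fold change of -0.09 ± 0.04 (adjusted p = 0.068), with its highest MAPKi library, 94.1 CPM, just below its lowest DMSO library, 95.3 CPM.

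Base salvage was lower as well. HPRT1, which recovers hypoxanthine and guanine, stood at 60.3, 64.0 and 60.4 CPM in DMSO and 19.9, 20.5 and 20.9 CPM in MAPKi, a log2 change of -1.59 ± 0.05. APRT, which recovers adenine, changed by -0.71 ± 0.04 (adjusted p = 0.00253 against 1.5-fold, edgeR). SAMHD1, which hydrolyses deoxynucleoside triphosphates, was the only member that was higher, at 39.0, 39.8 and 41.0 CPM in DMSO and 58.8, 64.0 and 63.2 CPM in MAPKi. Its log2 change of 0.63 ± 0.05 passed the test against no change (adjusted p = 1.6e-06) and not that against 1.5-fold (adjusted p = 0.14, edgeR).

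**Figure D3:**
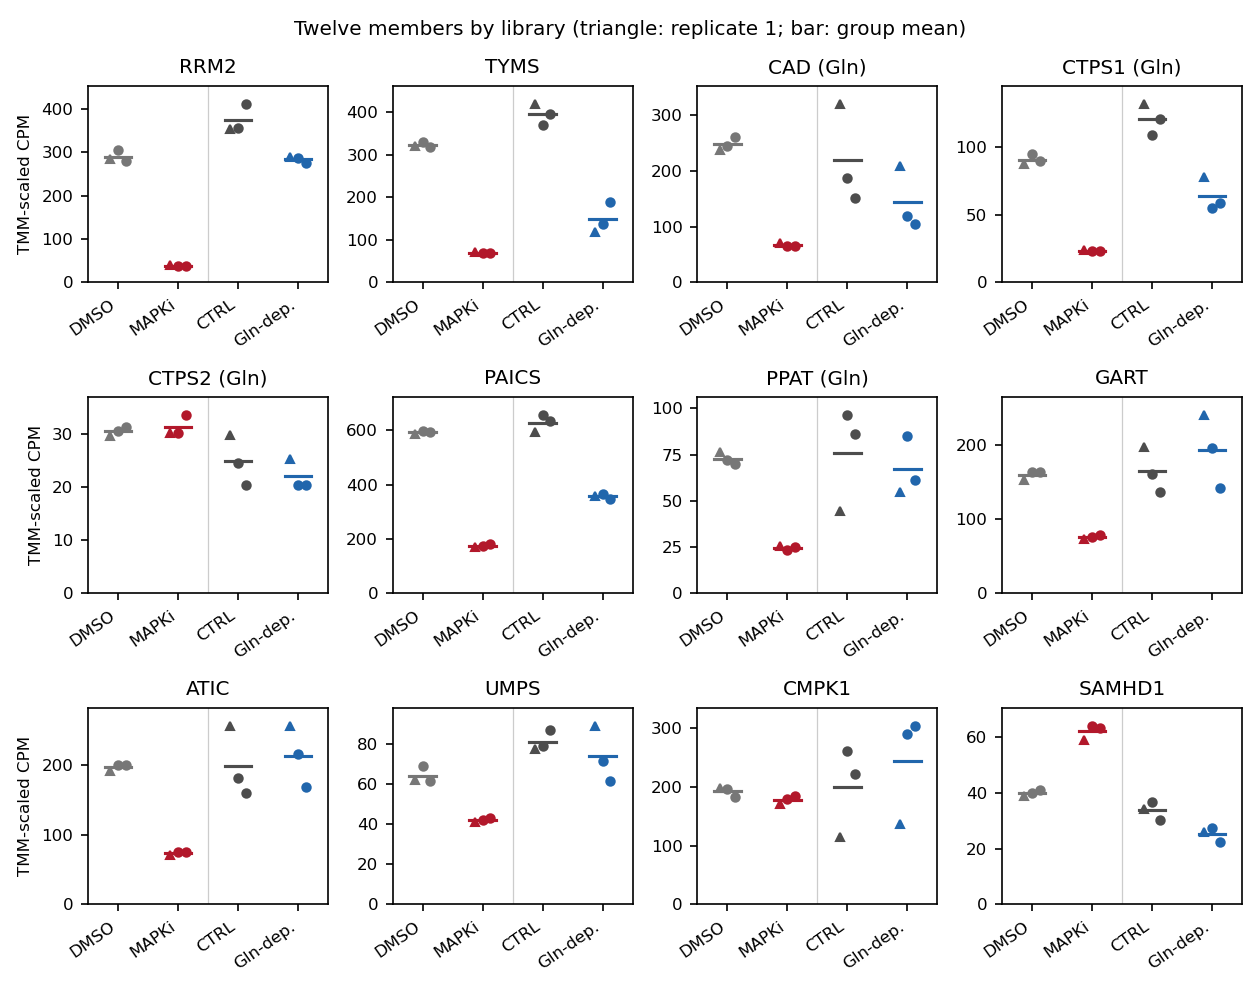
TMM-scaled CPM (y axis, from 0, scaled within each experiment) of 12 genes in each library, by group; triangles are replicate 1, circles replicates 2 and 3, bars group means. RRM2 stands at 37.1 to 39.6 CPM in MAPKi, below all DMSO libraries, while CTPS2 overlaps between DMSO and MAPKi and SAMHD1 is higher in MAPKi than in DMSO.

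Of the 6 glutamine-using genes 5 were downregulated by MAPKi and 20 of the 24 others, beside 18.4% of all tested genes. The median log2 fold changes were -1.49 and -1.18, a description with no test. The 14 listed proliferation markers moved with the members, since 13 were downregulated and their summed level was 3400 to 3710 CPM in DMSO and 1150 to 1180 CPM in MAPKi. MKI67, which marks cycling cells, changed by -1.28 ± 0.09 (adjusted p = 2.5e-05 against 1.5-fold, edgeR). In these bulk libraries fewer cycling cells and less RNA per cell cannot be told apart, and the part of the markers' change in that of the members was not tested.

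The genes around the members changed in both directions. Of 65 further genes of nucleotide metabolism 48 were tested, of which 11 were downregulated and 11 upregulated, beside 18.4% and 17.2% of all tested genes. Their median log2 fold change was 0.17. The largest falls were those of UCK2, a uridine and cytidine kinase (-2.05 ± 0.04), NT5E, the cell-surface 5'-nucleotidase CD73 (-1.84 ± 0.07), AK4, a mitochondrial adenylate kinase (-1.23 ± 0.06), DGUOK, the mitochondrial deoxyguanosine kinase (-1.22 ± 0.04), and ADSS2 of the AMP branch (-1.01 ± 0.04). The largest rises were those of SLC29A4, a membrane transporter (2.46 ± 0.12), NME5 (1.89 ± 0.35), TYMP, the thymidine phosphorylase (1.82 ± 0.28), UPP1, the uridine phosphorylase (1.73 ± 0.05), and AK1, the cytosolic adenylate kinase (1.54 ± 0.06). NME5 and TYMP rose from low levels, 0.261 and 0.616 CPM in DMSO, to 0.975 and 2.19 CPM in MAPKi. Of 4 other glutamine amidotransferases, named here after their values were seen, 2 were downregulated. ASNS, the asparagine synthetase, changed by -2.14 ± 0.33 from a level of only 0.761 ± 0.0874 CPM (SD), and GFPT1, of hexosamine synthesis, by -0.89 ± 0.04 (adjusted p = 0.0013 and 3.9e-05 against 1.5-fold, edgeR). ASNS shares 49.3% of its exon bases with another annotated gene, so its level is uncertain. GFPT2 and NADSYN1 changed by 0.34 ± 0.06 and 0.29 ± 0.06, past no change and not past 1.5-fold.

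Glutamine depletion gave smaller differences against a wider spread. The log2 fold change was below 0 for 27 of 30 members, with a median log2 fold change of -0.40 (all tested genes, -0.03), and 1, TYMS, was downregulated and 0 upregulated, beside 2.41% and 3.15% of the 12510 tested genes. Against no change, 8 passed the test and were lower, namely PRPS2, PAICS, CTPS1, TYMS, DUT, TK1, DTYMK and HPRT1, and 0 were higher, beside 9.76% and 8.69% of tested genes. The groups did not overlap for 18 members that were lower and 0 that were higher, beside 22.3% and 18.3%.

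The libraries of the glutamine experiment paired by replicate number. Replicate 1 stood apart in both groups, with CAD at 321 CPM in CTRL replicate 1 and 187 and 152 CPM in replicates 2 and 3, and at 209 CPM in Gln-depleted replicate 1 and 119 and 104 CPM in the others. CMPK1 stood the other way, at 115 CPM in CTRL replicate 1 and 261 and 222 CPM in the others. With the replicate number as a block in the edgeR fit, 5 members were downregulated, PRPS2, CTPS1, TYMS, TK1 and HPRT1, and 0 upregulated, beside 8.36% and 8.18% of tested genes. Against no change 18 were lower and 0 higher, beside 25.2% and 23.6%. Within experimental batch 1, which had 1 library a group and no test, 25 members lay below 0 with a median of -0.46 (all tested genes, 0.01). Within batch 2, 26 lay below 0 with a median of -0.37 (all tested genes, -0.01). In that batch 11 were lower and 0 higher against no change, beside 17.0% and 17.9% of 12470 tested genes. There 2 were downregulated and 0 upregulated, beside 5.16% and 5.81%.

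TYMS had the largest fall of the 30 after glutamine depletion. It stood at 419, 370.4 and 396 CPM in CTRL and at 119, 136.5 and 188 CPM in Gln-depleted libraries, with every depleted library below every CTRL library. The log2 change was -1.42 ± 0.21 (adjusted p = 0.0258 against 1.5-fold, edgeR), -1.82 in the first pair, -1.44 in the second and -1.07 in the third. TYMSOS counts, on the opposite strand, moved alongside from 752 to 1094 reads in CTRL to 257 to 461 in depleted libraries. ENOSF1 counts moved from 1467 to 1746 reads in CTRL to 1104 to 1220 in depleted libraries. The downregulation was lost at 1.5-fold when CTRL replicate 1, 2 or 3 or Gln-depleted replicate 2 was left out, while the log2 change stayed between -1.63 and -1.28 whichever library was left out.

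The other genes of thymidylate and deoxynucleotide supply had ratios below 0 in all 3 pairs. TK1 stood at 209.7, 155 and 172 CPM in CTRL and 80.6, 73.7 and 94.1 CPM in Gln-depleted libraries (log2 change -1.11 ± 0.20, adjusted p = 0.00964 against no change, edgeR), and it was downregulated under the block (adjusted p = 0.00688 against 1.5-fold). DUT changed by -0.77 ± 0.17 and DTYMK by -0.75 ± 0.19, both past no change. DCK, at -0.14 ± 0.21, did not pass (adjusted p = 0.66). HPRT1 and PRPS2 were separated between groups too. HPRT1 stood at 66.4, 64.2 and 53.4 CPM in CTRL and 32.6, 30.2 and 27.8 CPM in Gln-depleted libraries (-1.02 ± 0.18, adjusted p = 0.00979 against no change, 0.00705 against 1.5-fold under the block). PRPS2 stood at 129, 153 and 135 CPM and at 65.9, 72.7 and 74.3 CPM (-0.97 ± 0.17, adjusted p = 0.0094 against no change, 0.0114 against 1.5-fold under the block).

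**Figure D4:**
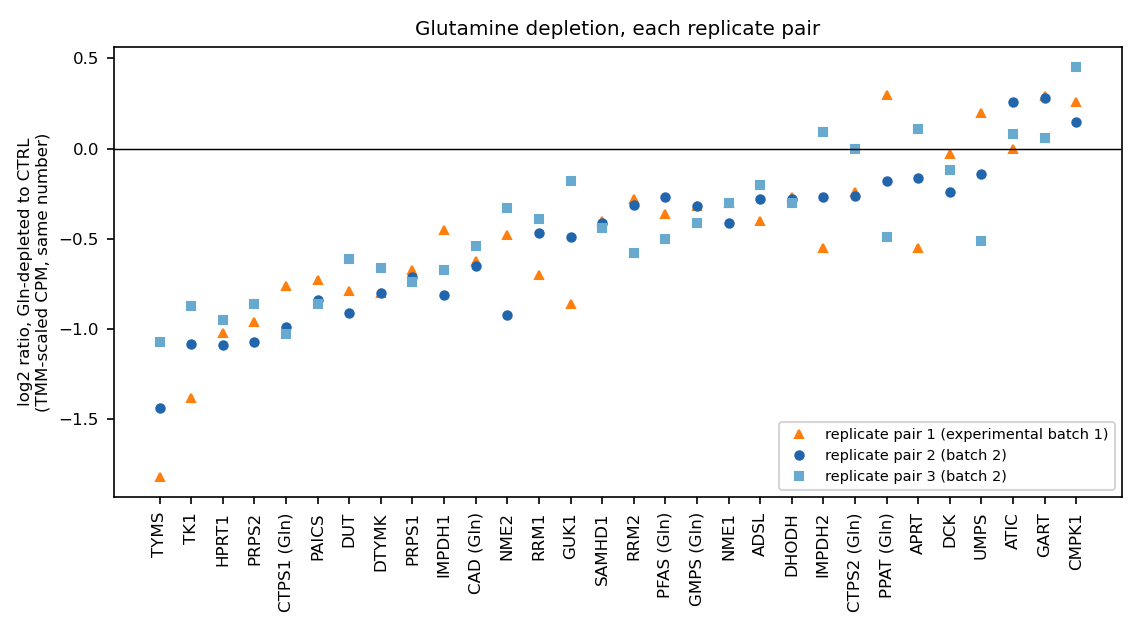
Log2 ratio of Gln-depleted to CTRL medium (y axis, TMM-scaled CPM) for each of the 30 genes (x axis, ordered by the fitted change) in the 3 replicate pairs; triangles are experimental batch 1, circles and squares batch 2. All 3 pairs lie below 0 for TYMS, from -1.82 to -1.07, while PPAT has 1 pair at 0.30 and the others at -0.18 and -0.49.

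The genes of the purine route had unlike values under glutamine depletion. PAICS stood at 594.5, 657 and 634 CPM in CTRL and 359, 367 and 349 CPM in Gln-depleted libraries, a log2 change of -0.81 ± 0.16 (adjusted p = 0.0129 against no change, edgeR) with groups far apart. PPAT overlapped, at 44.6, 96.5 and 85.9 CPM in CTRL and 54.8, 85.3 and 61.2 CPM in Gln-depleted libraries (-0.17 ± 0.31, adjusted p = 0.727). GART stood at 197, 161 and 136 CPM in CTRL and 240.5, 196 and 142 CPM in Gln-depleted libraries (0.23 ± 0.24, adjusted p = 0.538), and ATIC had a value of 0.10 ± 0.24 (adjusted p = 0.793). PFAS and ADSL had values of -0.37 ± 0.29 and -0.29 ± 0.16, neither past no change, and PFAS passed under the block (adjusted p = 0.0244). The PPAT to PAICS count ratio was 0.075, 0.147 and 0.135 in CTRL and 0.153, 0.232 and 0.175 in Gln-depleted libraries, a mean log2 difference of 0.69 with no test.

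After glutamine depletion the glutamine-using genes had values close to those of the others, which was not tested. Their median log2 fold change was -0.36 and that of the 24 others was -0.45. Of the 6, 1, CTPS1, was lower against no change and 0 were downregulated, beside 9.76% and 2.41% of tested genes. CTPS1 stood at 132, 109 and 120.4 CPM in CTRL and 77.8, 54.8 and 58.9 CPM in Gln-depleted libraries (-0.92 ± 0.20, adjusted p = 0.0199 against no change, 0.0194 against 1.5-fold under the block). CTPS2 had a log2 fold change of -0.18 ± 0.21 (adjusted p = 0.585), and the CTPS1 to CTPS2 count ratio was 4.42, 4.42 and 5.86 in CTRL and 3.07, 2.67 and 2.88 in Gln-depleted libraries (exact permutation p = 0.1, the smallest possible; 0.25 adjusted over 5 ratios). CAD had a value of -0.61 ± 0.36 and GMPS of -0.35 ± 0.17, neither past no change, and under the block both passed (adjusted p = 0.00305 and 0.0271). Under the block 4 of the 6 were lower against no change and 1 was downregulated, beside 25.2% and 8.36% of tested genes.

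The rest of the members showed these values. RRM2 stood at 353, 356 and 411.5 CPM in CTRL and 290.1, 288 and 275.5 CPM in Gln-depleted libraries, separate groups with a log2 fold change of -0.39 ± 0.16 that did not pass the test (adjusted p = 0.123; 0.0244 under the block). RRM2B had a value of 1.05 ± 0.41 (adjusted p = 0.108; 0.00039 under the block), and the RRM2 to RRM2B ratio was 16.1, 6.24 and 9.15 in CTRL and 5.89, 2.53 and 2.91 in Gln-depleted libraries, with no overlap (exact permutation p = 0.1; 0.25 adjusted). The exact tests of this ratio and of CTPS1 to CTPS2 ignored the replicate pairs. In each pair both ratios were lower in the Gln-depleted library. RRM1 had a value of -0.53 ± 0.20 (adjusted p = 0.0999; 0.00862 under the block). PRPS1 had a value of -0.70 ± 0.22 and IMPDH1 of -0.63 ± 0.19 (adjusted p = 0.0594 and 0.055; 0.00177 and 0.00367 under the block). SAMHD1, NME1 and GUK1 had values of -0.41 ± 0.18, -0.34 ± 0.17 and -0.48 ± 0.22 and passed only under the block (adjusted p = 0.0208, 0.0354 and 0.0233). IMPDH2, DHODH, UMPS, NME2 and APRT had values of -0.55 to -0.13, and CMPK1 of 0.29 ± 0.38, and these 6 passed in neither fit.

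Of 47 tested genes of the wider nucleotide list, 2 were downregulated and 2 upregulated, beside 2.41% and 3.15% of all tested genes, with a median of -0.21. SLC29A2 and SLC29A1, the equilibrative nucleoside transporters ENT2 and ENT1, fell by 2.24 ± 0.21 and 1.40 ± 0.18 on the log2 scale (adjusted p = 0.00297 and 0.0166 against 1.5-fold, edgeR). UPP1 rose by 2.20 ± 0.26 and NT5C2, a cytosolic nucleotidase, by 1.21 ± 0.18 (adjusted p = 0.00675 and 0.0308). Under the block 3 were downregulated and 5 upregulated, beside 8.36% and 8.18% of all tested genes. The amidotransferases ASNS and GFPT1 were upregulated, by 2.81 ± 0.38 to 3.59 ± 0.312 CPM (SD) and by 1.78 ± 0.25, opposite in sign to their MAPKi values. The ASNS level is uncertain here too, because of its shared exon bases. GFPT2 changed by -1.47 ± 0.38 (adjusted p = 0.0352 against no change, 0.122 against 1.5-fold and 0.00284 against 1.5-fold under the block), and NADSYN1 had a value of -0.25 ± 0.21. Of the 14 proliferation markers 1, MKI67, was downregulated (-1.15 ± 0.18, adjusted p = 0.0405 against 1.5-fold, edgeR). Against no change 8 were lower and under the block 9 were downregulated, beside 9.76% and 8.36% of tested genes. Their summed level was 2570 to 3620 CPM in CTRL and 1190 to 1910 CPM in Gln-depleted libraries. MYC changed by -0.99 ± 0.26 (adjusted p = 0.0354 against no change, 0.192 against 1.5-fold) and E2F1 had a value of -0.40 ± 0.23 (adjusted p = 0.261; 0.0384 under the block). Of the 4 tested regulators 0 were downregulated and 1 was lower against no change, or 3 under the block. Their part in the members' change was not tested.

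The change itself was compared between experiments in 1 edgeR fit of all 12 libraries, as the MAPKi effect minus the Gln-depletion effect. It differed for 20 of the 30 members at an adjusted p of at most 0.05, beside 40.4% of 12625 tested genes. With the replicate block 26 members differed, beside 60.9%. The widest difference was that of RRM2 (-2.50 ± 0.15, adjusted p = 4.1e-07), followed by NME1 (-1.55 ± 0.15), ATIC (-1.50 ± 0.28), PPAT (-1.38 ± 0.32), GART (-1.28 ± 0.27) and CAD (-1.26 ± 0.43), all lower under MAPKi. SAMHD1 differed the other way (1.06 ± 0.16, adjusted p = 0.00027). TK1 (-0.16 ± 0.21, adjusted p = 0.567), DUT (-0.24 ± 0.16, 0.268) and CTPS2 (0.23 ± 0.22, 0.433) passed in neither fit, nor did UMPS (-0.46 ± 0.20, 0.0888), which does not show that they responded alike. IMPDH1, IMPDH2, CMPK1, NME2, GUK1 and APRT passed only with the block. Treatment and sequencing batch cannot be told apart in this difference, although each experiment had its own reference libraries.

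Across the 30 members the log2 changes of the experiments, which share no libraries, had a Pearson r of 0.45 and a Spearman rho of 0.52, given as a description because genes are not independent replicates. Of the 30, 25 lay below 0 in both. These values are not given for all tested genes, so they cannot be called particular to the members. TYMS had the largest fall under glutamine depletion and the second largest under MAPKi, whereas RRM2, with the largest fall under MAPKi, did not pass under glutamine depletion without the block. Per kilobase of canonical transcript, IMPDH2, TYMS, TK1 and APRT were the most abundant mRNAs of the 30 in DMSO libraries, at 232, 198, 145 and 113 CPM per kilobase. In CTRL medium TYMS stood at 249 ± 25.6 (SD, n = 3) and IMPDH2 at 227 ± 57.1, a gap within their spread. DHODH, NME2 and CTPS2 had the lowest values in DMSO, at 5.17, 5.39 and 7.63 CPM per kilobase. The rank of NME2 is uncertain, since it shares 24.2% of its exon bases with the NME1-NME2 read-through.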

How the data were processed

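RNA of A375 cells from 12 libraries was sequenced after rRNA depletion. As deposited, the values are raw read counts per gene; the authors trimmed reads with fastp 0.20.1, aligned them to GRCh38.p13 with HISAT2 2.2.1, counted exon reads with HTSeq 0.13.5 and removed genes with fewer than 2 reads. The strand setting is not given in the sources used here. From these counts, protein-coding genes (by RefSeq) with a mean TMM-normalized count of at least 10 were fitted per experiment with edgeR 4.0.16 (R 4.3.3), treatment as the only term. Gene coordinates, canonical transcript lengths and shared exon bases are from GENCODE v44. Calls used glmTreat against 1.5-fold, single genes glmQLFTest, both with Benjamini-Hochberg adjustment at 0.05. Gene pair ratios had two-sided exact permutation tests over libraries (scipy 1.17.1), which did not use replicate pairs or batches. Scripts were tested on simulated data.

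Members and lists were chosen with earlier results of these data known. Named were all 30 members, the up to 5 largest called changes of the other pathway genes in each direction, the genes of each ratio, and MYC, E2F1, MKI67, DUSP6 and TRIB3. In the glutamine experiment deviations from the group means correlated at 0.664, 0.55 and 0.432 between same-numbered libraries over 12510 genes, and the labels give replicate 1 its own experimental batch, so the numbers were taken as pairs. Alternatives were DESeq2 1.42.0, its size factors, other filters, thresholds and gene sets, a fit of 12 libraries, the replicate block, a batch term and leaving out each library. Promoter windows and sequences are from RefSeq (GRCh38.p14).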

Additional observations from a re-analysis of the deposited data

How the results depend on the processing

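Under MAPKi the 25 downregulated members became 16 with a log2 threshold of 1, and 1 member was higher without a threshold. The replicate block, given here because same-numbered MAPKi and DMSO libraries correlated at only 0.117, 0.029 and 0.044, left 25 downregulated, with 27 lower and 1 higher against no change. The median of the 30 members was -1.27 with a mean count of at least 100, and -1.33 to -1.25 when a library was left out. The other pathway genes numbered 20 lower and 24 higher without a threshold, and 4 and 6 with a log2 threshold of 1. Under glutamine depletion the 1 downregulated member became 6 in the fit of 12 libraries, 5 with the replicate block and 5 with the batch term. The count was 2 in experimental batch 2 alone and 8 without a threshold. It was 0 with a log2 threshold of 1, 0 at an adjusted p of 0.01, and 0 to 1 when a library was left out. The share of all tested genes moved as well, from 2.41% to 8.36% with the block, 5.16% in batch 2 and 9.76% without a threshold. A rise in the count is thus not particular to the members, and for the other settings no such share is given here. The other pathway genes were lower in 4 cases without a threshold, 1 with a log2 threshold of 1, 1 at an adjusted p of 0.01, and 1 to 3 with a library left out. They were higher in 4 cases in the fit of 12 libraries, 5 with the block, 5 with the batch term, 4 in batch 2, 6 without a threshold, 1 with a log2 threshold of 1, 1 at an adjusted p of 0.01, and 1 to 2 with a library left out. The difference between experiments held for 20 members, for 26 with the block, 23 in DESeq2, 14 at an adjusted p of 0.01, and 17 to 22 with a library left out. The block moved the calls of the glutamine experiment given beside the results. Signs turned for values that had not passed a test. With a library left out, CTPS2 ranged from -0.03 to 0.06 under MAPKi, and under glutamine depletion PPAT ranged from -0.39 to 0.04, ATIC from -0.05 to 0.38 and CTPS2 from -0.30 to 0.03. APRT was 0.02 in batch 2 alone. The cause of these changes was not tested, other than the smaller sample in the left-out fits and the threshold itself. Depth limited NME2 alone among the members, at 48 to 226 reads, and 3 libraries a group with a wide spread limited the glutamine experiment.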

Other observations

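The count table holds a second line for GART under the name GART_1, which was not used in the comparisons. It held 10 to 17 reads in the MAPKi libraries and 19 to 28 in the DMSO libraries. In CTRL medium it held 56, 348 and 18 reads and in the Gln-depleted libraries 277, 386 and 11 reads. Relative to the GART count of the same library this was 0.254% to 5.99%, and the spread within each group of the glutamine experiment was wider than the gap between groups. Which transcript it stands for is not given in the sources used here.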
